A study of Danio rerio with 4 samples.

Results

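Eyes of zebrafish heterozygous at both eys and lrp5 (eys+/-; lrp5+/-, called double heterozygotes here) were compared with eyes of lrp5-/- homozygotes. The fish of both genotypes were 3.5 months old and of mixed sex, and each genotype was measured on 1 Affymetrix array. The series holds 2 further arrays, of wildtype and of eys-/- eyes, which serve here to show where a gene lay in those genotypes. Their values also entered the level cutoff and the choice of probe set per gene. A gene counted as measured when the higher of the 2 arrays compared read at least 6.57, the median of all values of probe sets with 1 gene symbol. All values are log2 RMA signals, and a difference is the double heterozygote minus lrp5-/-, so that 1 equals 2-fold. The genes described are those that differed by 2-fold or more: 61 of 10339 measured genes, or 0.590%, of which 31 (0.300%) were higher and 30 (0.290%) lower in the double heterozygote. With 1 array a side there is no spread between fish and no test, and every statement of higher or lower refers to these 2 arrays. The alleles, the number of fish behind each array and the hour of sampling are not in the labels.

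The gene eys encodes a large secreted protein of the photoreceptor matrix and is mutated in a recessive form of retinitis pigmentosa in people. The gene lrp5 encodes a cell-surface co-receptor for Wnt ligands. With the receptor FZD4 and the secreted ligand Norrin it directs the growth and barrier of retinal vessels in mammals. In people, mutations in it cause familial exudative vitreoretinopathy. The double heterozygote carries a single mutant copy of each gene, and the lrp5-/- fish carry no normal copy of lrp5.

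No probe set used here carried the name eys (0 probe sets). The single lrp5 probe set read 7.17 in lrp5-/- and 6.92 in the double heterozygote, a difference of -0.25, against 7.39 in wildtype and 7.27 in eys-/-. The homozygote was therefore not the lower of the pair. Its position with respect to the mutation was not available for this work, and its reading is no test of the genotypes. Most markers of the main eye tissues were close on both arrays: the cone transducin gene gnat2 read 12.48 in lrp5-/- and 12.56 in the other genotype, the lens crystallin gene cryaa 11.38 and 11.59, and the melanosome gene pmela 9.31 and 9.19. The bipolar cell gene vsx1 read 10.60 and 10.37. The exception among 10 markers was the lens gene crygm2e, which passed 2-fold and is described with the lens genes. Whole eyes hold all of these tissues, and fewer cells of a type cannot be told apart from less RNA per cell.

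The pair was the closest of the 6 pairs of arrays by 2 of 3 measures. The robust SD of the difference over measured genes was 0.17, against 0.20 to 0.23 in the other 5 pairs, and 61 genes passed 2-fold, against 66 to 228. By the Pearson correlation over all probe sets wildtype and lrp5-/- were slightly closer, at 0.983 against 0.982 for this pair. The median absolute difference was 0.12 and the 99th percentile of absolute differences was 0.86. The spread was wider at low level. With the genes split into 4 bins of equal size by mean level, the robust SD was 0.21 in the lowest bin and between 0.16 and 0.17 in the others. That lowest bin held 14 of the higher and 14 of the lower genes, and the highest bin held 8 and 2.

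**Figure D1:**
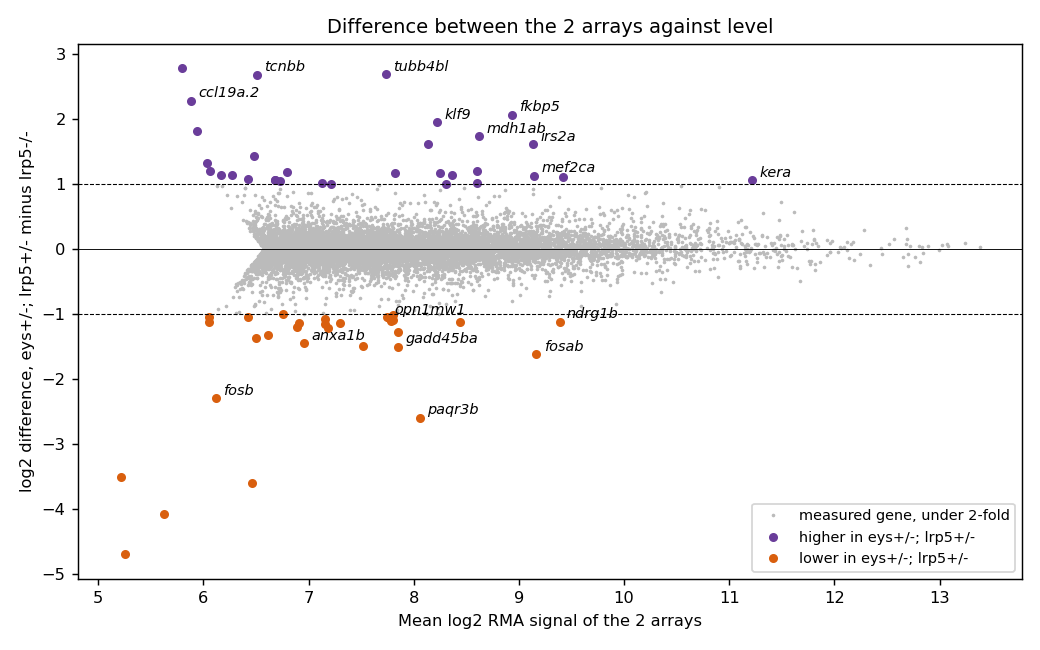
Each point is a measured gene, with the mean log2 signal of the 2 arrays on the x axis and the log2 difference, double heterozygote minus lrp5-/-, on the y axis; dashed lines mark 2-fold. The 31 higher and 30 lower genes lie outside the dense band, and the 4 points below -3 are genes with clone-style names.

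Among the 61 genes, 51 have gene names, 26 higher and 25 lower. The other 10 have clone-style names in the array annotation, 5 in each direction. By role, 4 genes grouped here as steroid and insulin response were higher, but the sorting left anxa1b and dusp1, lower genes that are also glucocorticoid targets, in other groups. Of 7 immediate early genes and signal inhibitors, 6 were lower, but klf9, a higher gene also on the immediate early list, was sorted into the steroid group. Metabolic and transport genes were mostly higher (6 of 7), as were genes of the cytoskeleton and membrane shape (5 of 6). Genes grouped here as eye surface, matrix and lens were mostly lower (7 of 9), and so were the remaining transcription factors (4 of 5). On the separate fibrous matrix list 21 of 33 measured genes were above 0, and kera, its only gene past 2-fold, was higher. These role groups were made after the genes had been seen.

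The steroid and insulin group was led by fkbp5, whose product is a chaperone of the glucocorticoid receptor and whose gene is a classical target of that receptor. It read 7.90 in lrp5-/- and 9.97 in the double heterozygote, a difference of 2.07 or 4.19-fold, while wildtype read 7.0 and eys-/- 9.92. The double heterozygote thus lay beside eys-/-, and lrp5-/- lay between them and wildtype. The glucocorticoid-responsive transcription factor gene klf9 read 7.25 in lrp5-/- and 9.20 in the double heterozygote (1.95), with wildtype at 6.47 and eys-/- at 7.75. Here the double heterozygote was above all the other arrays. The gene irs2a, for an adaptor that carries signals from the insulin receptor, read 8.33 and 9.94 in the pair (1.61), with wildtype at 8.32 and eys-/- at 9.51. The gene pfkfb4b, for an enzyme that sets the level of the glycolytic activator fructose 2,6-bisphosphate, read 8.0 and 9.20 (1.2), with wildtype at 7.39 and eys-/- at 8.88. In all 4 genes both the double heterozygote and eys-/- lay above lrp5-/-.

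Relatives of fkbp5, irs2a and pfkfb4b were under 2-fold. Of 9 measured FK506 binding protein genes, fkbp5 alone passed 2-fold, and the other receptor co-chaperone, fkbp4, differed by -0.11. Of 3 insulin receptor substrate genes, irs1 differed by 0.51, from 8.63 to 9.15, and irs4a by -0.24. Of 6 genes of the pfkfb family, pfkfb3 differed by 0.55 and pfkfb4a by -0.16. A list of 20 measured glucocorticoid receptor, chaperone and target genes held 3 higher and 2 lower genes, against shares of 0.300% and 0.290% over all measured genes. Its median was 0.19, where the median of all measured genes was 0.01. With unmeasured genes of the list included the median was 0.03. Those past 2-fold on the higher side were fkbp5, klf9 and pfkfb4b, and those on the lower side were anxa1b and dusp1. Next came the zinc finger genes zbtb16b (0.92) and zbtb16a (0.71), the clock gene per1a (0.86) and the cell cycle inhibitor gene cdkn1a (0.73). In this list cdkn1a and errfi1b reached the level only in the double heterozygote, which favours a difference above 0. By contrast anxa1b reached it only in lrp5-/-, which favours a difference below 0. The receptor gene nr3c1 differed by -0.13, and the targets tsc22d3 and sgk1 by 0.03 and 0.15.

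**Figure D2:**
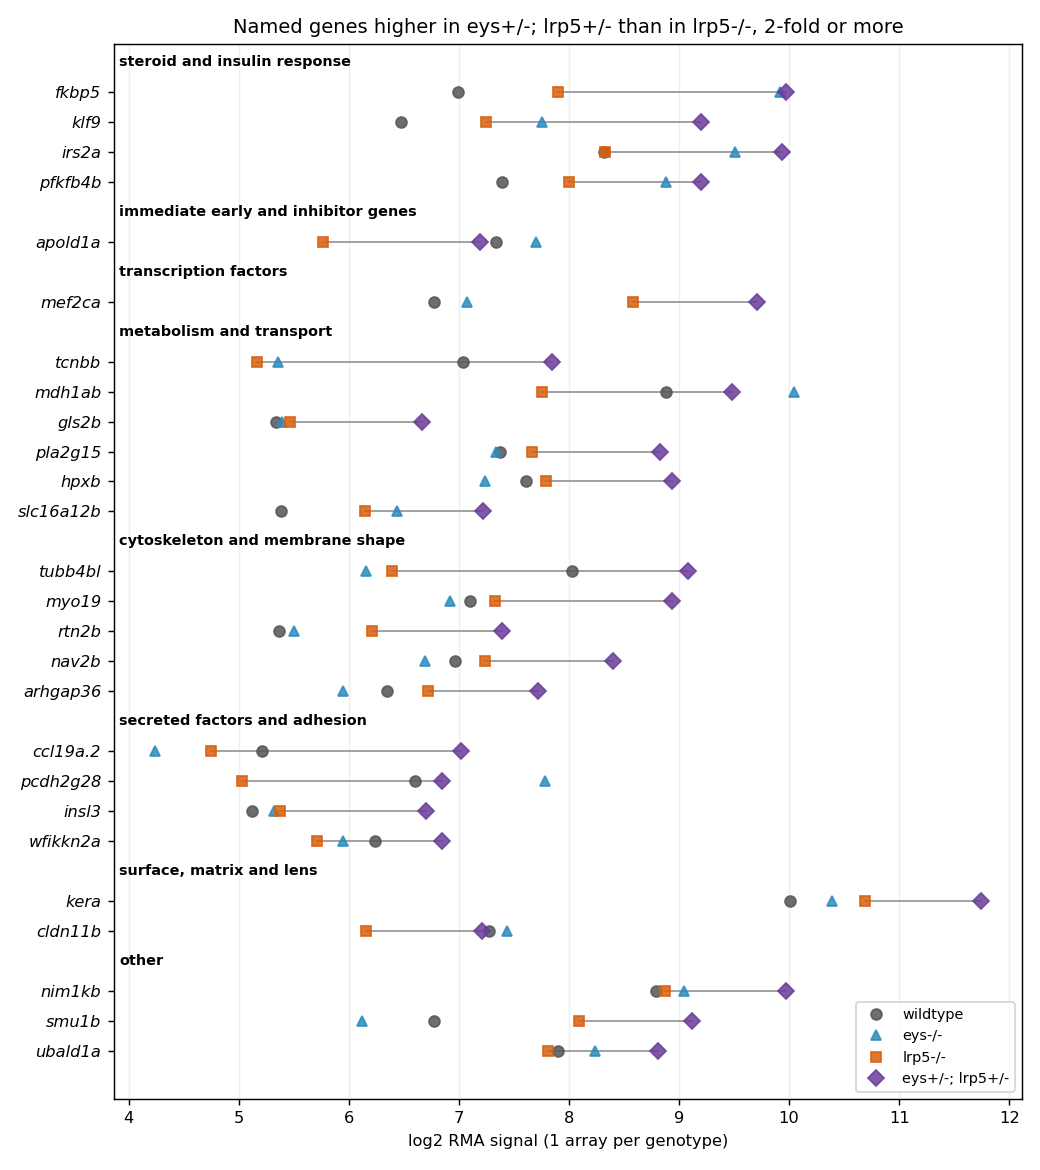
The 26 named genes that were higher in the double heterozygote, grouped by role, with the log2 signal on each of the 4 arrays; a grey line joins the 2 arrays compared. For fkbp5, irs2a and pfkfb4b the eys-/- array lies near the double heterozygote, whereas for apold1a, cldn11b and pcdh2g28 the lrp5-/- array stands below the other 3.

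Immediate early genes are switched on within minutes by synaptic activity, light, growth factors or stress, and several encode inhibitors that end the signal. The transcription factor gene fosb read 7.26 in lrp5-/- and 4.97 in the double heterozygote (-2.30, 4.91-fold), with wildtype at 5.50 and eys-/- at 5.16. The lrp5-/- array stood alone, and the double heterozygote reading lay below the median of its array, so the size of this difference is uncertain. Its relative fosab, the zebrafish c-Fos gene, read 9.98 and 8.35 (-1.62), with wildtype and eys-/- at 8.01 each. For both Fos genes the double heterozygote was close to wildtype and eys-/-.

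The growth arrest gene gadd45ba read 8.60 in lrp5-/- and 7.10 in the double heterozygote (-1.50), with wildtype at 8.08 and eys-/- at 8.02. Both arrays of the pair stood apart from wildtype and eys-/-, in opposite directions. The cytokine signalling inhibitor gene socs3a read 7.18 and 5.82 (-1.36), with wildtype at 6.25 and eys-/- at 6.69. The flow-responsive transcription factor gene klf2b read 8.35 and 7.25 (-1.10), with wildtype at 7.42 and eys-/- at 7.18. The MAP kinase phosphatase gene dusp1 read 8.30 and 7.24 (-1.06), with wildtype at 7.81 and eys-/- at 7.22. In these 6 genes lrp5-/- was above each of the other 3 arrays.

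The single gene of this group that was higher in the double heterozygote was apold1a, known in mammals as an early response gene of endothelial cells. It read 5.77 in lrp5-/- and 7.19 in the double heterozygote (1.43), with wildtype at 7.34 and eys-/- at 7.70, so the lrp5-/- array stood below the others. Of the pair, apold1a reached the level only in the double heterozygote, which favours a difference above 0. Its paralogue apold1b read 6.80 on both arrays. Of 27 measured endothelial genes apold1a was the single one past 2-fold, against 0.590% of all measured genes. The median of the endothelial genes was -0.06, and the next were plvapa, a marker of fenestrated vessels, at -0.55 and she at -0.42.

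The difference in immediate early genes did not extend over the whole group. Of 34 measured genes on the immediate early list, 6 were lower and 1 higher, klf9, against shares of 0.290% and 0.300% over all measured genes. The median of the list was -0.05, with 14 of its genes above 0 and 19 below. Among them fosb, socs3a and cebpb reached the level only in lrp5-/-, which favours a difference below 0. The activity-dependent gene npas4a read 7.19 in lrp5-/- and 7.12 in the double heterozygote, against 5.61 in wildtype and 5.62 in eys-/-. Likewise gadd45ga read 8.48 and 8.27 in the pair, against 6.0 and 6.40, and egr1 read 10.02 and 9.92, against 9.08 and 8.52. These 3 genes were thus about equally high on both arrays compared. Of 8 measured genes of the Fos and Jun families fosb and fosab passed 2-fold, while fosaa differed by 0.00, junba by 0.03, jun by 0.27 and fosl2 by 0.34. Among 19 Kruppel-like factor genes klf2b was lower and klf9 higher. The near relative klf2a differed by -0.94, from 8.47 to 7.53, with wildtype at 7.75 and eys-/- at 9.15. The erythroid factor klf1 differed by 0.99, from 7.18 to 8.17, with wildtype at 8.21 and eys-/- at 8.31.

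Of the other transcription factor genes, mef2ca, a regulator of muscle, skeletal and neuronal genes, read 8.58 in lrp5-/- and 9.71 in the double heterozygote (1.13). Wildtype read 6.77 and eys-/- 7.07, so both arrays compared were well above the remaining pair. Its duplicate mef2cb had the same order, at 9.31 and 10.25 (0.94) against 8.43 and 8.67, while mef2aa and mef2d differed by 0.25 and -0.00. On the lower side, the Myb family gene mybl1 read 7.27 and 5.95 (-1.32), with wildtype at 6.95 and eys-/- at 6.21, and its relative myb differed by -0.63. Both Myb genes reached the level only in lrp5-/-, which favours a difference below 0. The forkhead gene foxq1b read 8.33 and 7.23 (-1.10), with wildtype at 8.0 and eys-/- at 8.03. Its relative foxq1a read 6.95 and 5.91 (-1.04), with wildtype at 6.42 and eys-/- at 6.86. In both the double heterozygote was below each of the other 3 arrays, and the third family member, foxq2, differed by -0.10. The zinc finger gene znfl2a differed by -1.0.

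Metabolic and transport genes included some of the largest differences. The gene tcnbb, of a vitamin B12 binding protein, read 5.17 in lrp5-/- and 7.85 in the double heterozygote (2.68, 6.41-fold), with wildtype at 7.04 and eys-/- at 5.36. The arrays of both homozygotes were low, and their readings lay little above the array median, so the size is uncertain. The related transport gene tcn2 differed by -0.01. The gene mdh1ab, of the cytosolic malate dehydrogenase, read 7.75 and 9.48 (1.73), with wildtype at 8.88 and eys-/- at 10.05, so lrp5-/- was lowest. Its duplicate mdh1aa and the mitochondrial mdh2 differed by 0.01 each.

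The liver-type glutaminase gene gls2b read 5.46 and 6.67 (1.2), with wildtype at 5.34 and eys-/- at 5.40. Its lrp5-/- reading lay little above the array median, so the size is uncertain. Both glsa and glsb, of the other glutaminase type, differed by 0.23 and 0.20. The lysosomal phospholipase gene pla2g15 read 7.67 and 8.83 (1.16), with wildtype at 7.38 and eys-/- at 7.34. The haem-binding hemopexin gene hpxb read 7.79 and 8.93 (1.14), with wildtype at 7.61 and eys-/- at 7.23. The transporter gene slc16a12b, whose human counterpart is mutated in a juvenile cataract, read 6.15 and 7.22 (1.07), with wildtype at 5.38 and eys-/- at 6.44. In these 4 genes the double heterozygote was above each of the other 3 arrays. Of 11 measured monocarboxylate transporter genes slc16a12b alone passed 2-fold, against 0.590% of all measured genes. The lysosomal enzyme gene gusb, for beta-glucuronidase, was lower, at 9.0 in lrp5-/- and 7.88 in the double heterozygote (-1.12), with wildtype at 9.08 and eys-/- at 8.12.

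Among cytoskeletal genes the beta tubulin gene tubb4bl read 6.39 in lrp5-/- and 9.08 in the double heterozygote (2.69, 6.44-fold), with wildtype at 8.03 and eys-/- at 6.16. Beta tubulins are near-identical and can share probes, so this value is uncertain. A second tubb4bl probe set, at 1.52 in lrp5-/- and 4.90 in the double heterozygote, lay below the array median on both. The other 5 measured beta tubulin genes differed by -0.12 to 0.30. The gene myo19, of a myosin that moves mitochondria, read 7.33 and 8.94 (1.61), with wildtype at 7.11 and eys-/- at 6.92. The reticulon gene rtn2b, whose family shapes the endoplasmic reticulum, read 6.21 and 7.39 (1.18), with wildtype at 5.37 and eys-/- at 5.50. The neuron navigator gene nav2b read 7.23 and 8.40 (1.17), with wildtype at 6.97 and eys-/- at 6.70. The gene arhgap36 differed by 1.0. In all 5 of these higher genes the double heterozygote had the highest reading of the 4 arrays. The FERM domain gene frmd5b was lower, at 7.87 in lrp5-/- and 6.74 in the double heterozygote (-1.13), with wildtype at 6.53 and eys-/- at 6.56, so lrp5-/- stood alone.

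Secreted factors and adhesion genes were led by ccl19a.2, of a chemokine of the CCL19 type, which attracts lymphocytes and dendritic cells in mammals. It read 4.74 in lrp5-/- and 7.02 in the double heterozygote (2.28), with wildtype at 5.21 and eys-/- at 4.24. The lrp5-/- reading was below the median of its array, so the size is uncertain. Of 8 measured chemokine genes it alone passed 2-fold, against 0.590% of all measured genes, and ccl27b was next at 0.61. All 7 measured genes of lymphocytes and antigen presentation were above 0, with a median of 0.25 and 0 past 2-fold, among them mhc2daa at 0.75 and cd74a at 0.51. Of these, mhc2daa and tap1 reached the level only in the double heterozygote, which favours a difference above 0, and with unmeasured genes of the list included the median was 0.15. They were 7 of 25 genes of that list on the array, and all 7 belong to antigen presentation. The part of immune cells in the ccl19a.2 difference was not tested.

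The clustered protocadherin gene pcdh2g28 read 5.03 and 6.85 (1.82), with wildtype at 6.60 and eys-/- at 7.78. Its cluster holds near-identical copies, and its lrp5-/- reading was at the array median, so this value is uncertain too. The relaxin family gene insl3 read 5.38 and 6.70 (1.32), with wildtype at 5.12 and eys-/- at 5.32. Its lrp5-/- reading lay little above the array median, so the size is uncertain. The gene wfikkn2a, whose product binds growth factors of the myostatin type, read 5.71 and 6.84 (1.14), with wildtype at 6.24 and eys-/- at 5.95. In both the double heterozygote stood above the other 3 arrays. On the lower side, ostn, for the secreted peptide osteocrin, read 7.70 and 6.62 (-1.08), with wildtype at 6.95 and eys-/- at 7.73. The hedgehog-interacting protein relative hhipl1 read 6.58 and 5.53 (-1.05), with wildtype at 6.26 and eys-/- at 6.68. For both the double heterozygote had the lowest reading of the 4 arrays and eys-/- the highest.

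Of the surface epithelium of the eye, 3 genes were lower. The annexin gene anxa1b read 7.68 in lrp5-/- and 6.23 in the double heterozygote (-1.45), with wildtype at 6.78 and eys-/- at 7.53. The calcium-binding protein gene s100w read 8.49 and 7.20 (-1.28), with wildtype at 7.62 and eys-/- at 8.32. The keratin gene krt1-19d read 8.31 and 7.29 (-1.01), with wildtype at 7.55 and eys-/- at 8.36. In each the homozygotes lay close together at the top and the double heterozygote lay lowest, with wildtype between. Over the 44 measured surface epithelium genes the median was -0.11, with 34 below 0 and 10 above. By 2-fold 3 were lower and 0 higher, against shares of 0.290% and 0.300% over all measured genes. With unmeasured genes of the list included the median was -0.06, and anxa1b, dsg2l and st14a reached the level only in lrp5-/-, which favours a difference below 0. Next were soul5 at -0.85 and capn9 at -0.80, and the other end was held by the desmosome gene dsc2l at 0.54. Over all 10339 measured genes 4949 were below 0. The part of surface tissue content in these differences was not tested.

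The corneal proteoglycan gene kera, for keratocan, was higher: 10.69 in lrp5-/- and 11.74 in the double heterozygote (2.08-fold), with wildtype at 10.01 and eys-/- at 10.39. The related genes lum, bgna and prelp differed by 0.45, 0.29 and 0.24, and dcn, bgnb and chad by 0.09, 0.03 and -0.07. Of these, lum reached the level only in the double heterozygote, which favours a difference above 0. Of 33 fibrous matrix genes kera was the single one past 2-fold, against 0.590% of all measured genes. The median was 0.09 over the list and 0.03 with its unmeasured genes included. The tight junction gene cldn11b read 6.16 and 7.21 (1.05), with wildtype at 7.28 and eys-/- at 7.44. It was the only one of 14 measured claudin genes past 2-fold, and its duplicate cldn11a differed by 0.15.

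Of the lower genes grouped here as matrix, crtac1a, of a cartilage matrix protein, read 7.79 and 6.58 (-1.21), with wildtype at 7.24 and eys-/- at 7.14. The clotting factor XIII gene f13a1a.1 read 7.73 and 6.58 (-1.15), with wildtype at 6.69 and eys-/- at 6.36. The gene and1, for an actinodin of the fish fin skeleton, read 7.48 and 6.34 (-1.14), with wildtype at 6.64 and eys-/- at 5.52. In all 3 the lrp5-/- reading was the highest of the 4 arrays. The lens crystallin gene crygm2e read 7.48 and 6.29 (-1.19), with wildtype at 6.74 and eys-/- at 5.41. Gamma M crystallins are near-identical, so this value is uncertain. The other 9 measured genes of the family differed by -0.60 to 0.05. The 45 lens genes had a median of -0.08 with 1 lower, against a share of 0.290% over all measured genes.

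**Figure D3:**
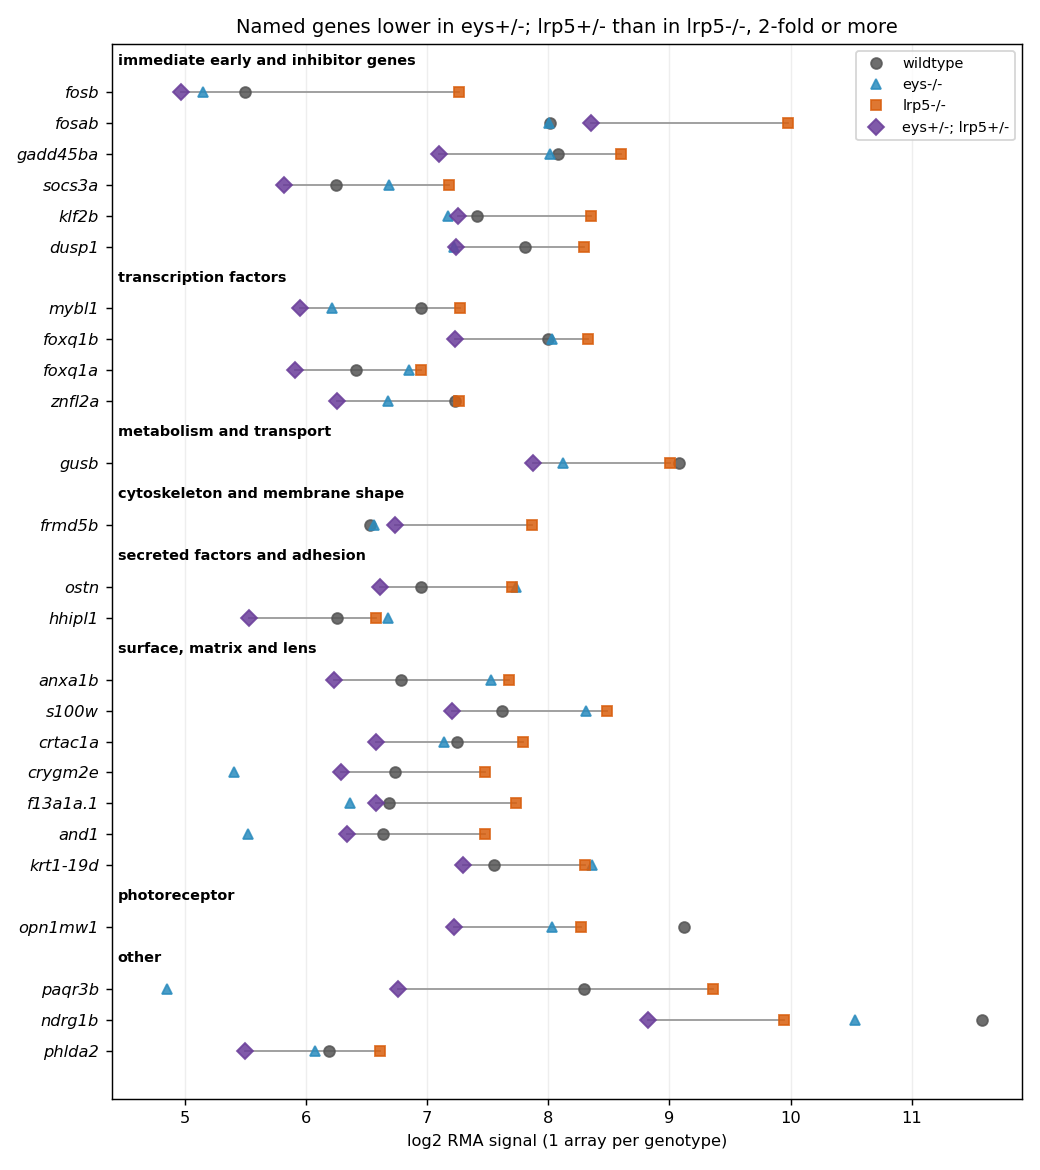
The 25 named genes that were lower in the double heterozygote, grouped by role, with the log2 signal on each of the 4 arrays; a grey line joins the 2 arrays compared. For fosb, fosab, klf2b, frmd5b and f13a1a.1 the lrp5-/- array stands above the other 3, whereas for anxa1b, s100w, krt1-19d and ostn both homozygotes lie at the high end.

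The cone and rod phototransduction lists had medians close to 0, while single genes neared or passed 2-fold. The green cone opsin gene opn1mw1 read 8.27 in lrp5-/- and 7.22 in the double heterozygote (-1.05), with wildtype at 9.12 and eys-/- at 8.03. It was the single one of 34 measured cone phototransduction genes past 2-fold, and their median was 0.06. Cone opsins of the green and of the red type have near-identical copies, so their values are uncertain. The red opsin gene opn1lw1 differed by 0.95, from 10.43 to 11.38, and the other green opsin genes opn1mw4 and opn1mw3 by 0.34 and -0.03. Among 23 rod phototransduction genes 0 passed 2-fold and the median was -0.01. A list of this size would hold few or none at the share of all measured genes, 0.590%. The rod phosphodiesterase inhibitor gene pde6ga differed by 0.97, from 10.06 to 11.03, with wildtype at 9.36 and eys-/- at 9.98. The rod fate gene nr2e3 differed by 0.92, from 8.67 to 9.59, with wildtype at 7.69 and eys-/- at 8.30.

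The remaining named genes belong to no shared role. The gene paqr3b, of a Golgi protein that in mammals binds Raf kinase, read 9.36 in lrp5-/- and 6.76 in the double heterozygote (-2.60, 6.06-fold), with wildtype at 8.30 and eys-/- at 4.85. No pair of arrays was close in this gene. A second paqr3b probe set read 5.54 and 5.44 in the pair (-0.11), so the probe sets disagree, and the paralogue paqr3a differed by 0.18. The stress and differentiation gene ndrg1b read 9.95 and 8.83 (-1.12), with wildtype at 11.58 and eys-/- at 10.53, so both arrays compared lay below the others. Its duplicate ndrg1a differed by 0.06. The gene smu1b, of a splicing factor, read 8.09 and 9.11 (1.02) against 6.77 in wildtype and 6.12 in eys-/-. The AMPK-related kinase gene nim1kb read 8.87 and 9.97 (1.11), with wildtype at 8.79 and eys-/- at 9.05. The pleckstrin homology domain gene phlda2 read 6.61 and 5.50 (-1.12), with wildtype at 6.19 and eys-/- at 6.08. The last, ubald1a, differed by 1.0, but its second probe set gave the opposite sign, at 5.44 and 1.31, with the double heterozygote reading below the array median.

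The 10 clone-style genes include the largest differences in both directions, and the following were named after their values were seen. On the lower side 4 differed by -4.70 to -3.50, all with double heterozygote readings below the array median, so that their sizes are uncertain. The first, LOC100006764, read 7.60 in lrp5-/- and 2.90 in the double heterozygote, with wildtype at 6.18 and eys-/- at 2.57. The next, si:ch211-235f1.3, read 7.67 and 3.59, with wildtype at 4.95 and eys-/- at 3.86. In the first eys-/- and the double heterozygote were the low arrays, and in the second lrp5-/- alone was high. The fifth lower gene read 8.27 and 6.78 (-1.49), and a second of its probe sets gave -1.55. On the higher side si:ch211-181d7.1 read 4.41 and 7.19 (2.78), with wildtype at 6.91 and eys-/- at 8.29, so lrp5-/- was lowest. Its lrp5-/- reading was below the array median. No role is given to these genes here.

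The 4 arrays were used to see which of the pair stood apart, meaning at least 0.5 above or below every other array. Of the 31 higher genes the double heterozygote stood apart in 22, lrp5-/- in 6 and neither in 3. Of the 30 lower genes the double heterozygote stood apart in 9, lrp5-/- in 10, both in 3 and neither in 8. Over all measured genes the double heterozygote stood apart in 1.83%, lrp5-/- in 0.503% and both in 0.0290%. Since the 61 genes were chosen on a gap between these arrays, the excess over all genes follows from the choice. The wildtype reading entered the choice only through the probe set per gene and the level cutoff. It was nearer to lrp5-/- than to the double heterozygote in 23 of the 31 higher genes and in 15 of the 30 lower ones. Over all measured genes it was nearer to the double heterozygote in 42.5%, against 37.7% of the 61. The eys-/- reading was nearer to lrp5-/- in 22 of the higher and in 15 of the lower genes, while over all measured genes it was nearer to the double heterozygote in 45.5%, against 39.3% of the 61. The difference eys-/- minus wildtype, which shares no array with the comparison, had the same sign in 36 of the 61 genes (59.0%) and in 52.0% of all measured genes.

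Most lists of cell type markers and pathway genes hardly differed between the arrays. Of 44 lists with at least 5 measured genes, 34 had a median within 0.1 of 0, and 14 held any gene past 2-fold. All 8 measured clock activator genes were below 0, with a median of -0.35 and 0 past 2-fold. A list of this size would hold few or none at the share of all measured genes, 0.590%. The Clock partner gene bmal1b read 7.30 in lrp5-/- and 6.66 in the double heterozygote (-0.63), with wildtype and eys-/- at 8.27 each. The Clock paralogue npas2 read 8.88 and 8.25 (-0.63), with wildtype at 9.35 and eys-/- at 9.44. In both, lrp5-/- lay between the double heterozygote and the other arrays.

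Clock repressor and clock output genes lay on both sides of 0, with 0 past 2-fold among 19 repressor and 15 output genes. Lists of these sizes would hold few or none at the share of all measured genes, 0.590%. The median was 0.04 for the repressor and 0.11 for the output genes. With the level filter at the 75th percentile these medians were 0.21 and 0.36. When both arrays had to reach the level they were 0.10 and 0.31. The Rev-erb gene nr1d4b differed by 0.98, from 7.85 to 8.82, with wildtype at 6.40 and eys-/- at 5.42, and nr1d4a by 0.80. The output factor dbpb differed by 0.73 and per1a by 0.86, from 9.77 to 10.63. The cryptochrome genes cry3b and cry3a differed by -0.91 and -0.85. The light-responsive photolyase family genes cry-dash and cry5 differed by -0.99 and -0.59, with the highest reading of each, 8.62 and 7.26, in lrp5-/-. The hour at which the eyes were taken is not given in the labels. Genotype and hour therefore cannot be told apart in these genes or in any other gene described here.

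Skeletal muscle genes, which in whole eyes can come from the eye muscles, had a median of 0.14 over 35 genes, with 27 above 0. The median was 0.11 with unmeasured genes of the list included and 0.23 with the level filter at the 75th percentile. Of these genes, tpm2 reached the level only in the double heterozygote, which favours a difference above 0, and xirp1 only in lrp5-/-, which favours the opposite. The gene mef2ca was the single one past 2-fold, against 0.590% of all measured genes. This gene is not restricted to muscle. The muscle myosin light chain gene myl1 differed by 0.80, from 6.87 to 7.67, with wildtype at 7.14 and eys-/- at 7.77. The genes mylz3 and pvalb4 differed by 0.75 and 0.72, but with the mean of its probe sets mylz3 differed by 0.42. Of 45 glycolysis and sugar transport genes 34 were above 0, with a median of 0.07 and 1 past 2-fold, pfkfb4b. Among them pdk4 and slc16a3b reached the level only in the double heterozygote, which favours a difference above 0. The part of eye muscle content in these differences was not tested.

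Of 77 Norrin and Wnt signalling genes on the array, the pathway of the mutated gene, 36 were measured and 0 passed 2-fold. At the share of all measured genes, 0.590%, a list of this size would hold few or none. The median was 0.01, with a range of -0.45, in the feedback inhibitor gene nkd1, to 0.44, in the receptor gene fzd3a. The Norrin gene ndp read 6.67 in lrp5-/- and 6.39 in the double heterozygote (-0.28). It reached the level only in lrp5-/-, which favours a difference below 0. Vitreoretinopathy genes, 6 measured, had a median of -0.23, with 5 below 0, 1 above and 0 past 2-fold. With unmeasured genes of that list included the median was -0.10. Dystroglycan and eys-related matrix genes, 21 measured, had a median of 0.06 with 0 past 2-fold. Oxidative phosphorylation (76 genes) and cytosolic ribosomal protein genes (63) had medians of -0.00 and 0.04 with 0 past 2-fold in each.

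**Figure D4:**
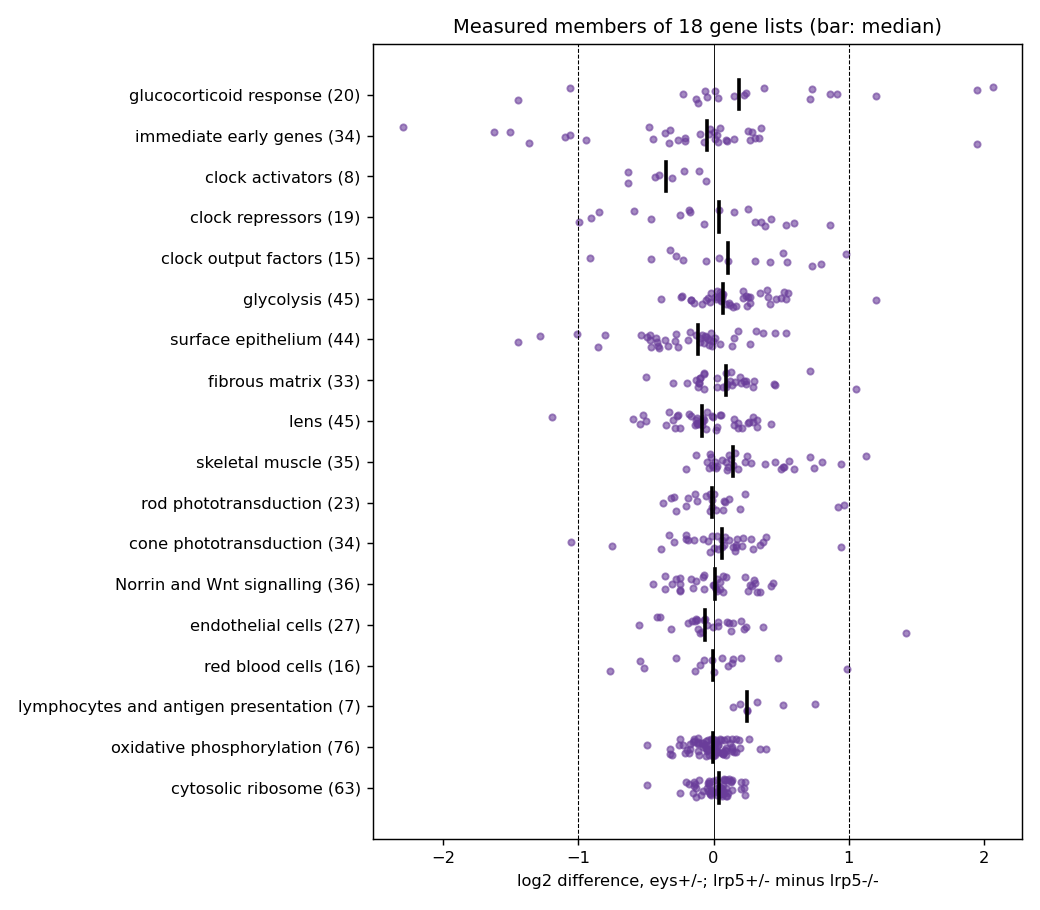
Each point is a measured gene of 1 of 18 lists, with its log2 difference, double heterozygote minus lrp5-/-, on the x axis; the bar is the median, dashed lines mark 2-fold, and brackets give the number of genes. The clock activators lie wholly below 0, the glucocorticoid and immediate early lists spread past 2-fold on both sides, and the other lists centre within 0.25 of 0.

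Position along the chromosomes was also looked at, because lrp5-/- fish are homozygous for the chromosome segment that carries the lrp5 mutation. In the RefSeq gene order of assembly GRCz12tu, 1 of the 50 measured genes nearest to lrp5 passed 2-fold, pla2g15. Over the whole chromosome of lrp5 it was 3 of 303 genes (0.990%), with nav2b and phlda2 the others. Near eys it was 0 of 50, and 0 of 383 on that chromosome, while the share among all measured genes was 0.590%. The median absolute difference was 0.16 near lrp5 and 0.13 near eys, against 0.12 over all measured genes. In pla2g15, nav2b and phlda2 the double heterozygote, not lrp5-/-, stood apart from the other arrays.

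The 2-fold line is arbitrary in a continuous distribution. Just inside it were arhgap36 and ubald1a at 1.0 and znfl2a at -1.0. Just outside it were klf1 at 0.99, the Rev-erb gene nr1d4b at 0.98, the growth hormone receptor gene ghrb at -0.99 and cry-dash at -0.99. Of the 61 genes 38 differed by less than 2.5-fold and 11 by 4-fold or more, 6 of the latter with gene names. A total of 7 genes, ccl19a.2 and fosb among them, have on 1 of the 2 arrays a reading under that array's median, which is not shown to be above background. When both arrays, not only the higher, had to reach the level, 16 higher and 16 lower genes were left. The higher named genes no longer counted were tubb4bl, tcnbb, ccl19a.2, pcdh2g28, apold1a, insl3, gls2b, rtn2b, wfikkn2a, slc16a12b and cldn11b. The lower ones were fosb, anxa1b, socs3a, mybl1, crygm2e, and1, phlda2, hhipl1, foxq1a and znfl2a. A further 8 had clone-style names.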

How the data were processed

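The deposited file holds log2 signals of 75212 probe sets on 4 arrays, 1 per genotype. Per the submitters' processing notes, RMA and Transcriptome Analysis Console 4.0 were used; the range of the values shows the log2 scale. RMA by definition corrects background, equalises distributions between arrays and summarises probes, so that a difference shared by nearly all genes is lost. Column medians ran from 5.03 to 5.06, and values are not centred by gene. The number of arrays limits the precision.

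GEO's platform annotation, dated 2013, gave 1 symbol for 20806 probe sets, several for 855 and none for 53551. Probe sets with 1 symbol gave 19260 genes, and a gene with several took the one brightest on average across all 4 arrays. RefSeq (GRCz12tu) held the gene identifiers of 20323 of these probe sets, updated 1 symbol and gave synonyms and gene order. No coordinates are printed, as no source used here names the array design's build.

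Named genes were, by rule, lrp5, eys, all genes past 2-fold without clone-style names and the 4 or fewer most different genes per list; other genes, such as paralogues and further list members, were chosen after their values were seen. The genes, lists and rules were chosen with earlier results of these data known. There is no test and no p-value. The 2-fold call was tested on simulated data, without the level filter or the choice of probe set. Only genes higher in the double heterozygote were planted. Alternatives changed the level filter, the probe set per gene, the normalization and the fold threshold. Promoter motifs were planned but no sequences were used here. Calculations used Python 3.11.15, pandas 2.3.3 and numpy 2.4.6.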

Additional observations from a re-analysis of the deposited data

How the results depend on the processing

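The counts of 31 higher and 30 lower genes depended most on the level filter and the fold threshold. They were 74 and 66 with no filter on level, 16 and 14 with a filter at the 75th percentile of values, and 16 and 16 when both arrays had to reach the level. At 1.5-fold they were 157 and 141, and at 3-fold 10 and 7. Repeated quantile normalization, centring on the median and removal of the trend against level gave 29 to 33 higher and 29 lower genes, and kept 58, 60 and 55 of the 61; those lost had differences of 1.12 or less in size (foxq1a, hhipl1, phlda2, smu1b, ubald1a and znfl2a). With the mean of a gene's probe sets 60 of 61 were kept. Under it ubald1a turned to -1.57, paqr3b was -1.35 in place of -2.60 and tubb4bl 3.03 in place of 2.69, because their other probe sets read differently. A level cutoff taken over all named probe sets, added after seeing the data, gave the same 61 genes. Medians of the 44 lists changed sign for 8 at most, under no filter on level, where the median of the glucocorticoid list was 0.03 in place of 0.19; no median above 0.0597 in size changed sign in any of these alternatives. Leaving out a replicate was not possible with 1 array per genotype. Promoter motifs were not run. Readings near the array median limit the sizes given.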

Other observations

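Probe sets without a gene name were counted with the same level filter and no further description. Of 11026 measured, 135 (1.22%) were at least 2-fold higher and 111 (1.01%) at least 2-fold lower, with differences of the double heterozygote from lrp5-/- between -6.42 and 4.43. Of 311 measured probe sets that carry several gene symbols, 0 passed 2-fold in either direction. What the unnamed probe sets measure is not known here.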
